A study of Mus musculus with 786 samples.

Results

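The 10 genes described here mark the commitment of blood precursors to the B-lymphoid lineage. They are Ebf1, Pax5, Rag1, Rag2, Dntt, Cd79a, Cd79b, Vpreb1, Igll1 and Ly6d, taken by their symbols from the expression tables, where they are 10 of 21664 genes in the single-cell tables and 9 of 18855 in the bulk table (Igll1 has no row in the latter). They were chosen by their measured levels in these samples, above all in the MPP4, CLP and CLP Sca1 high gates and as shares of single cells, so those levels are described without a test. Bone marrow came from C57BL6 mice 6 to 8 weeks old. The bulk part has 18 sorted populations of 1000 cells with 1 library each. MPP4, multipotent precursors, were sorted as CD48+CD150-CD135+CD34+. CLP, common lymphoid progenitors, were sorted as CD135+IL7R+ckit+Sca1+, and CLP Sca1 high by the same markers with high Sca1. The other 15 gates include stem cells (HSC), early multipotent precursors (MPP1, MPP2, MPP3) and myeloid progenitors (CMP, preGM, GMP-7, GMP-11). The rest are megakaryocyte-erythroid (preMegE, MEP), megakaryocyte (MKP, Mature Meg) and erythroid (PreCFU-E, CFU-E, ProEry) cells. The label of the bulk HSC library gives CD34+, the same marker set as bulk MPP1, whereas single HSC are labelled CD34-. The single-cell part has HSC (CD48-CD150+CD135-CD34-) on 3 plates and MPP1 (the same but CD34+) on 2 plates, and 1 plate of each from mice that had been bled. Of 460 wells labelled with 1 cell, 373 had at least 1000 genes at FPKM 1 (fragments scaled by transcript length and by the mapped fragments of a library) and were used.

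Commitment to the B lineage is a stepwise process in bone marrow. The factor Ebf1 acts early and opens B cell genes, and Pax5 then holds the cells in that lineage. Rag1 and Rag2 cut the antigen receptor loci, and Dntt adds untemplated bases at the joints. Cd79a and Cd79b carry the signal of the pre-B and B cell receptors, Vpreb1 and Igll1 form the surrogate light chain of the pre-B cell receptor, and Ly6d is a surface protein that separates B-biased from uncommitted lymphoid progenitors.

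The sequences before the start sites of the recombination genes are shown because these 3 genes were listed together at their higher levels in the CLP gate. They are the 250 bases upstream of the RefSeq start on GRCm38.p6, read 5′ to 3′ on the gene's strand, at chr2:101649533-101649782 (minus strand) for Rag1, chr2:101624462-101624711 (plus strand) for Rag2 and chr19:41029025-41029274 (plus strand) for Dntt. Capitals mark matches, on either strand, to CCCNNGNG (the core that EBF1 binds) and to CAGNTG (an E-box, the kind of site that E proteins bind).
Rag1: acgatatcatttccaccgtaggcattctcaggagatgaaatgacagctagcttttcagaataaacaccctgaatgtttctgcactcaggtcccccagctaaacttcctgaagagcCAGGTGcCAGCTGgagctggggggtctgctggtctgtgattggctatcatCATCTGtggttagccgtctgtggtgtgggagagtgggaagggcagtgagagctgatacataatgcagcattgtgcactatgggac
Rag2: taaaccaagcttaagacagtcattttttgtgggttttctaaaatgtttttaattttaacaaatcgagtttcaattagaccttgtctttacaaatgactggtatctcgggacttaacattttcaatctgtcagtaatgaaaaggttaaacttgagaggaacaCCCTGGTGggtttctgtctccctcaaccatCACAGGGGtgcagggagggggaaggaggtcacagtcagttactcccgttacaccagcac
Dntt: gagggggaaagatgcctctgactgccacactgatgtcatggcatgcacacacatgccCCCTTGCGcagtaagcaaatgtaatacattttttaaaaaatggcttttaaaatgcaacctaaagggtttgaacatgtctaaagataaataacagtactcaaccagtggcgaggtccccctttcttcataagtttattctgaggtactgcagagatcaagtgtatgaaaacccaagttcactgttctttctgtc
The Rag1 sequence held 3 E-box matches, at -135, -128 and -85 from the start site, and no EBF1 match. The Rag2 sequence held 2 EBF1 matches, at -89 and -59, and the Dntt sequence held 1, at -193. Such matches are common: CCCNNGNG occurred in 45.9% and CAGNTG in 44.8% of 32851 upstream windows of this length. Of the other members, Pax5, Cd79a, Vpreb1 and Igll1 had 1, 2, 1 and 3 EBF1 matches and 0, 1, 1 and 3 E-box matches, where the Cd79a E-box overlaps an EBF1 match. Neither Ebf1 window held either motif. RefSeq windows were used for 8 of the 10 members, and Cd79b and Ly6d were not searched.

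Ebf1 was by far highest in the CLP gate. It stood at 1726 FPKM there, then at 5.66 in Mature Meg, 2.55 in CLP Sca1 high, 1.90 in GMP-11, 1.76 in MPP4 and 1.53 in MKP. The other 12 populations were below FPKM 1, and 8 of them are listed at 0, HSC, MPP1, MPP2 and MPP3 among them. One library thus carried nearly the whole Ebf1 signal of the bulk series. Pax5, the factor downstream of Ebf1, is listed at 0 in all 18 libraries, CLP included. A gene listed at exactly 0 may lack an estimate rather than transcripts, and read depth is unknown. Tcf3, which encodes E proteins and is expressed widely, is likewise listed at 0 in MPP4, CLP and Mature Meg, and at 0.21 FPKM in CLP Sca1 high.

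**Figure D1:**
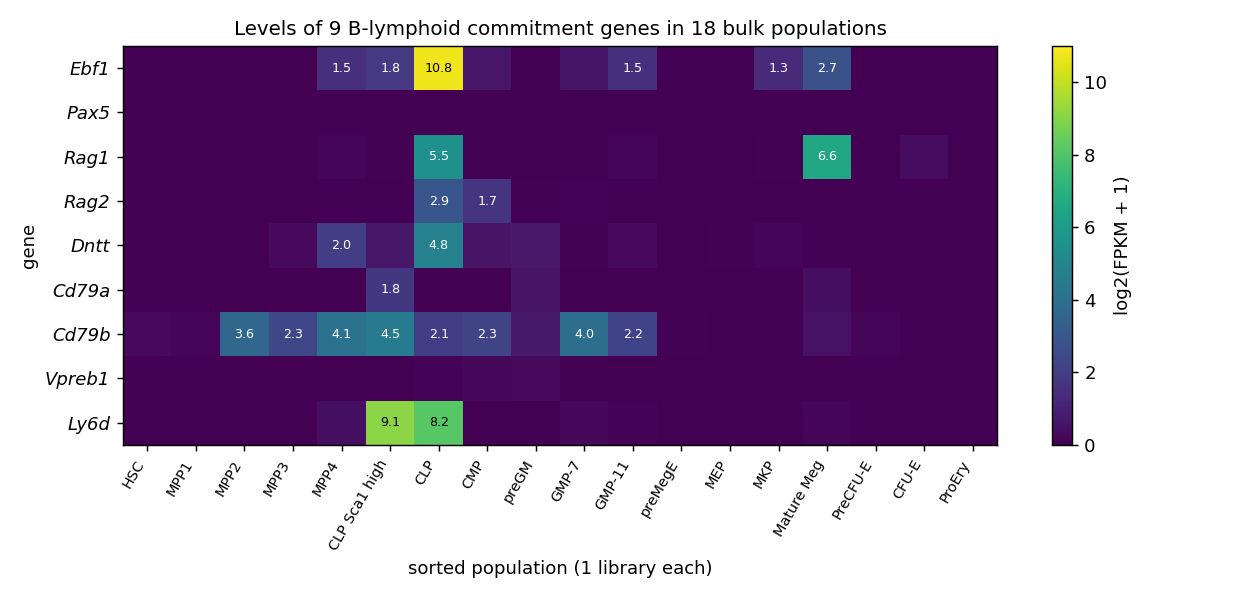
Level of the 9 genes with a row in the bulk table (rows) in 18 sorted populations (columns, 1 library each), as log2(FPKM + 1) from dark to bright, with the value printed where it is 1 or more. CLP holds the brightest Ebf1 cell and values of 1 or more for 6 genes, while Cd79b is spread over 8 populations and Pax5 and Vpreb1 reach 1 in none.

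The recombination genes shared the CLP gate with Ebf1. Rag1 stood at 45.5 FPKM in CLP, at 0.15 in MPP4 and at 0.042 in CLP Sca1 high. Its highest level was nevertheless in Mature Meg, at 93.0 FPKM, and no further population exceeded the 0.28 of CFU-E. Rag2 stood at 6.64 FPKM in CLP and 2.25 in CMP, and at 0.070 or less in the other 16. Dntt stood at 27.4 FPKM in CLP, 2.95 in MPP4, 0.67 in preGM and 0.64 in CLP Sca1 high. Dntt was thus the recombination gene with a level above FPKM 1 in MPP4. Rag1 and Rag2, which are transcribed towards each other, differed in the population beside CLP: Mature Meg, with Rag1 at 93.0 FPKM, is listed at 0 for Rag2. Both lie within the span of B230118H07Rik in the GENCODE vM21 annotation, and strand use in the counting is not given in the sources used here. That gene was at 0.017 FPKM in CLP and 0 in Mature Meg.

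The receptor chains Cd79a and Cd79b had different patterns. Cd79a was above FPKM 1 only in the CLP Sca1 high library among the 18, at 2.45, followed by preGM at 0.51 and Mature Meg at 0.37, and CLP was at 0.033. Cd79b reached FPKM 1 in 8 libraries, and they were not confined to lymphoid gates. It stood at 22.4 FPKM in CLP Sca1 high, 16.3 in MPP4, 14.5 in GMP-7, 11.4 in MPP2, 4.00 in MPP3, 3.85 in CMP, 3.61 in GMP-11 and 3.14 in CLP. HSC at 0.21 and MPP1 at 0.14 FPKM were far below these, and the megakaryocyte and erythroid gates were at 0.44 or less. With 1 library per population, neighbours in this order cannot be separated from the spread between libraries, which is unknown.

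Of the surrogate light chain genes, Vpreb1 was near 0 and Igll1 has no row in the bulk table. Vpreb1 reached no more than 0.21 FPKM (preGM), 0.18 in CMP and 0.077 in CLP, and 15 libraries are listed at 0. Its near-identical relative Vpreb2 stood at 4.71 FPKM in preGM and is listed at 0 elsewhere. The upstream windows of Vpreb1 and Vpreb2 share a run of 91 bases. Their transcripts were not compared, and whether reads are split between the copies was not tested. Top3b overlaps Vpreb1 on the opposite strand. Ly6d was confined, above FPKM 1, to the CLP gates: 549 FPKM in CLP Sca1 high and 283 in CLP, against 0.32 in MPP4 and 0.16 in GMP-7. In bulk samples, fewer cells of a type and less RNA per cell cannot be told apart.

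In all, 6 of 9 listed members stood at FPKM 1 or more in CLP (Ebf1, Rag1, Rag2, Dntt, Cd79b, Ly6d), 4 in CLP Sca1 high (Ebf1, Cd79a, Cd79b, Ly6d) and 3 in MPP4 (Ebf1, Dntt, Cd79b). The 15 other populations had 0 to 2. Of all 18855 genes in the bulk table, 4365 reached FPKM 1 in CLP, 3625 in CLP Sca1 high and 4107 in MPP4. The choice of members used these levels, so nothing is read from the member counts. The summed FPKM of the members was 2092 in CLP, 577 in CLP Sca1 high, 99.5 in Mature Meg and 21.5 in MPP4.

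Next, the gates were set against each other on the log2(FPKM + 1) scale, counting differences of at least 2. From HSC to MPP4, 1 of 9 members was higher, Cd79b, by 3.85, and none was lower. Dntt came close at 1.98 and Ebf1 was 1.47 higher. Among all 5075 genes with FPKM 1 in either library, 3 of them members, 31.7% were higher and 13.8% lower, and the median gene was 1.11 higher. Relative to that median shift, Cd79b was higher, and Dntt and Ebf1 were above it by less than 1.

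From MPP4 to CLP, 5 members were higher by at least 2: Ebf1 by 9.29, Ly6d by 7.75, Rag1 by 5.34, Rag2 by 2.91 and Dntt by 2.85. Cd79b went the other way, with a difference of -2.07. Over all 5647 genes with FPKM 1 in either (6 members) 18.7% were higher and 17.5% lower, with a median shift of 0.07. The median over all 9 listed members, a set without that limit, was 2.85. The choice of members used these levels, so nothing is read from the counts of this or the other bulk comparisons. Scaled to equal totals or to equal upper quartiles, Cd79b no longer passed the difference of 2.

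CLP Sca1 high kept few of these differences from MPP4. Ly6d was higher by 8.70, and no member was lower by 2. Cd79a was higher by 1.79, Cd79b by 0.43 and Ebf1 by 0.36, while Dntt differed by -1.27. Over 5463 such genes (5 members) 16.5% were higher and 25.3% lower, with a median of -0.68.

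Both gates labelled as CLP had Ebf1, Cd79b and Ly6d at FPKM 1 or more. Rag1, Rag2 and Dntt reached it in CLP but not in CLP Sca1 high, and Cd79a the reverse. In CLP Sca1 high, 4 members were lower than in CLP: Ebf1 by -8.92, Rag1 by -5.48, Dntt by -4.11 and Rag2 by -2.91. Cd79b was higher by 2.50, Cd79a by 1.74 and Ly6d by 0.95. Over 5531 such genes (7 members) 14.2% were higher and 24.4% lower, with a median of -0.70. The median over all 9 listed members, a set without that limit, was -0.11. These comparisons share libraries with each other (MPP4 stands in 3 of them) and have no replicate check.

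**Figure D2:**
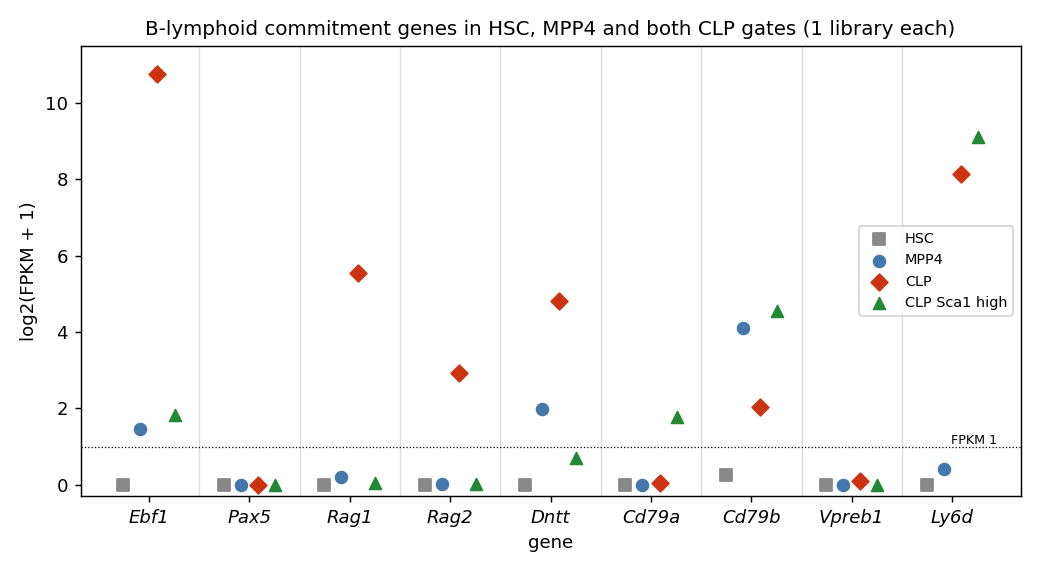
Level of each listed gene as log2(FPKM + 1) in HSC (squares), MPP4 (circles), CLP (diamonds) and CLP Sca1 high (triangles), 1 library each; the dotted line is FPKM 1. Ebf1, Rag1, Rag2 and Dntt are highest in CLP, whereas Cd79a, Cd79b and Ly6d are highest in CLP Sca1 high.

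Some sort markers and some markers of other cells also differed between the CLP and CLP Sca1 high libraries, in both directions. Il7r, the receptor that defines the gate, stood at 4.96 FPKM in CLP and 4.50 in CLP Sca1 high and at 0.34 or less elsewhere. Flt3, which encodes CD135, stood at 376 FPKM in CLP, 231 in MPP4 and 4.51 in CLP Sca1 high. Kit stood at 141 FPKM in CLP and 2.73 in CLP Sca1 high, and Ly6a, which encodes Sca1, at 0.33 and 5.81. Both CLP libraries thus had Il7r, while the Flt3 and Kit levels of CLP Sca1 high were low against its labelled CD135+ckit+ sort.

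Of 21 T and NK cell markers, 12 reached FPKM 1 in CLP Sca1 high and 2 in CLP and MPP4 each. Over all 18855 genes, 3625, 4365 and 4107 did so in CLP Sca1 high, CLP and MPP4. The summed FPKM of the T and NK cell markers was 162, 78.4 and 16.7, against 0 to 30.2 in the 15 other populations. In CLP Sca1 high these were led by Cd7 (31.1 FPKM), Gata3 (31.0), Il2rb (29.5), Cd4 (19.9), Tcf7 (16.4) and Cd3g (10.4), with Cd3d at 0. In CLP they were Lck at 44.9 and Tcf7 at 32.2, with Cd3d, Cd3e and Cd3g at 0. Plasma cell markers summed to 1156 FPKM in CLP Sca1 high and 123 in CLP, against 0.17 to 254 elsewhere. Igj, the J chain of secreted antibodies, stood at 815 FPKM in CLP Sca1 high and 0.037 in CLP, and Tnfrsf17 at 0 in both. Sdc1, a surface proteoglycan, was instead higher in CLP, at 92.5 FPKM against 53.4 in CLP Sca1 high, and made up most of the CLP sum. Of 11 plasmacytoid dendritic cell markers 9 reached FPKM 1 in CLP Sca1 high and 4 in CLP, summing to 375 and 186, against 0.75 to 675 elsewhere, with Tcf4 at 153, Ccr9 at 41.0 and Siglech at 17.0 in CLP Sca1 high. Mature B cell markers summed to 73.4 FPKM in CLP Sca1 high and 13.8 in CLP, mostly Cd74 (57.0 and 13.4), while Cd22 was at 0.30 and 0. Whether such cells were present in the gates was not tested, nor was any part of them in the members' levels.

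Rag1 and Ebf1 in Mature Meg stood beside other levels of that library. It had 1642 genes at FPKM 1, the fewest of the 18 (the others had 2866 to 6080). Its megakaryocyte genes Itga2b, Vwf and Gp9 stood at 44.9, 1.60 and 1.11 FPKM. Cd4 stood at 29.4, Cd74 at 37.2, Ms4a1 at 1.89 and the neutrophil gene Ngp at 44.0 FPKM, while Cd3d, Cd3e and Cd22 were at 0. Whether these levels have a part in those of Rag1 and Ebf1 was not tested.

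Of 25 further B lineage genes 21 had a row, of which 7 reached FPKM 1 in CLP, 9 in CLP Sca1 high and 5 in MPP4. Beside them, 4365, 3625 and 4107 of all 18855 genes did so. From MPP4 to CLP, 8 of the 21 had FPKM 1 in either library. Of these 8, 1 was higher and 3 lower by at least 2, beside the 18.7% and 17.5% of all genes. The highest in CLP were Cd24a, a surface protein of many immature cells (54.3 FPKM, against 271 in MPP4), the kinases Syk (24.5) and Btk (12.8), and the adaptor Blnk (6.01). In CLP Sca1 high, Pou2af1, a coactivator of antibody genes, stood at 74.5 FPKM and the factor Spib at 39.4.

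Of 30 listed genes of lymphoid priming, 18 reached FPKM 1 in MPP4, 20 in CLP and 21 in CLP Sca1 high. The 15 other populations had 6 to 18. Beside them, 4107, 4365 and 3625 of all 18855 genes did so in MPP4, CLP and CLP Sca1 high. From HSC to MPP4, 18 of the 30 had FPKM 1 in either library. Of these 18, 11 were higher and none lower by at least 2, beside the 31.7% and 13.8% of all genes. The median over all 30, those below FPKM 1 in both libraries included, was 0.76. The 1.11 of all genes leaves such genes out, so these medians are not comparable. The chromatin organiser Satb1 stood at 0.016 FPKM in HSC, 1342 in MPP4, 394 in CLP and 78.7 in CLP Sca1 high. Cnn3 stood at 107, 216 and 0.21 in MPP4, CLP and CLP Sca1 high. Of 12 listed DNA end joining genes, which repair the breaks that Rag1 and Rag2 make, 4 had FPKM 1 in MPP4 or CLP. None of these 4 differed by at least 2, beside the 18.7% higher and 17.5% lower of all genes. The remaining genes were too low in both libraries to differ by that much on this scale. Xrcc5, a subunit of the Ku complex, was the highest of the 12 in CLP at 17.2 FPKM, with 24.4 in MPP4 and 86.5 in CLP Sca1 high.

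**Figure D3:**
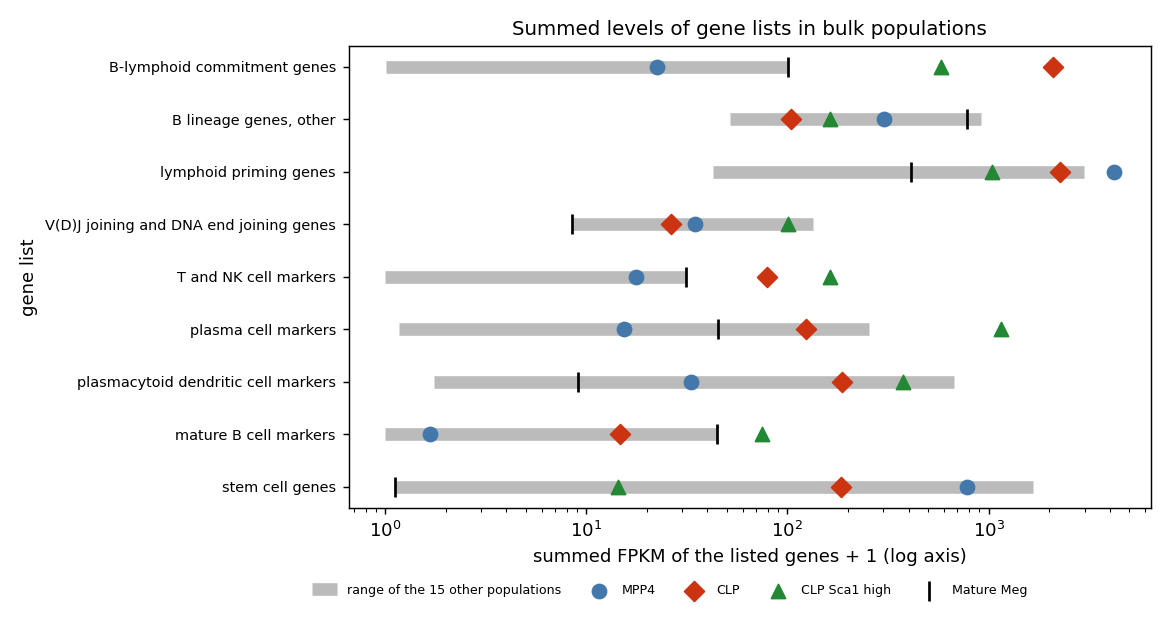
Summed FPKM of each gene list plus 1 (log axis) in MPP4, CLP, CLP Sca1 high and Mature Meg, over the range of the 15 populations other than MPP4 and the CLP gates (grey bars, which include Mature Meg). The B-lymphoid commitment genes (2092 and 577) and the T and NK cell markers (78.4 and 162) of CLP and CLP Sca1 high lie beyond the grey range, and the plasma cell markers (1156) and mature B cell markers (73.4) only for CLP Sca1 high.

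The genes most like the members over the 18 populations were then ranked by Pearson correlation of log2(FPKM + 1) with the members' mean profile, among 6120 genes that reached FPKM 10 in 1 population. The first were Mycl1 (r = 0.92), Prkca (0.91), Mpa2l (0.90) and Mpeg1 (0.89), and B430119L13Rik, Mocs2, Ebpl, St6gal1 and Nfkbiz also stood among the first 10, with r between 0.88 and 0.89. Levels in the CLP gates were high: Prkca stood at 198 FPKM in CLP and 18.5 in CLP Sca1 high, and St6gal1 at 131 and 41.9. The likeness rests on those libraries, since without them none of the 10 stayed among the first 10, and by Spearman correlation 1 did.

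For single members the closest genes were Arl4a and Gfra1 for Ebf1 (both 0.96), C1qa (0.94) and Mapk7 (0.91) for Rag1, Inpp4a (0.995) and Mtss1 (0.98) for Rag2, and Rnf150 (0.97) and Trim12 (0.95) for Dntt. For Cd79a they were Cd7 (0.96) and Fcrla (0.95), for Cd79b Cxcr4 (0.87) and Clec2i (0.85), and for Ly6d C76566 (0.99) and St6gal1 (0.98). Among the members, Ebf1 and Dntt were most alike (r = 0.90), and Cd79b correlated with none above 0.43 (Ly6d). These are descriptions over 18 libraries in which 1 or 2 libraries set most of each profile.

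In single HSC and MPP1, Cd79b was the 1 member found in many cells. It reached FPKM 1 in 103 of 373 cells, or 27.6% (exact 95% binomial interval 23.1 to 32.5, for counting error only). The HSC plates had 15 of 50 (30.0%), 10 of 53 (18.9%) and 16 of 73 cells (21.9%). The MPP1 plates had 14 of 51 (27.5%) and 19 of 48 (39.6%), the bled HSC plate 11 of 48 (22.9%) and the bled MPP1 plate 18 of 50 (36.0%). The intervals of all 7 plates overlapped. Among the genes seen in at least 1 cell of a plate, between 18.9% and 42.9% had a higher share than Cd79b.

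**Figure D4:**
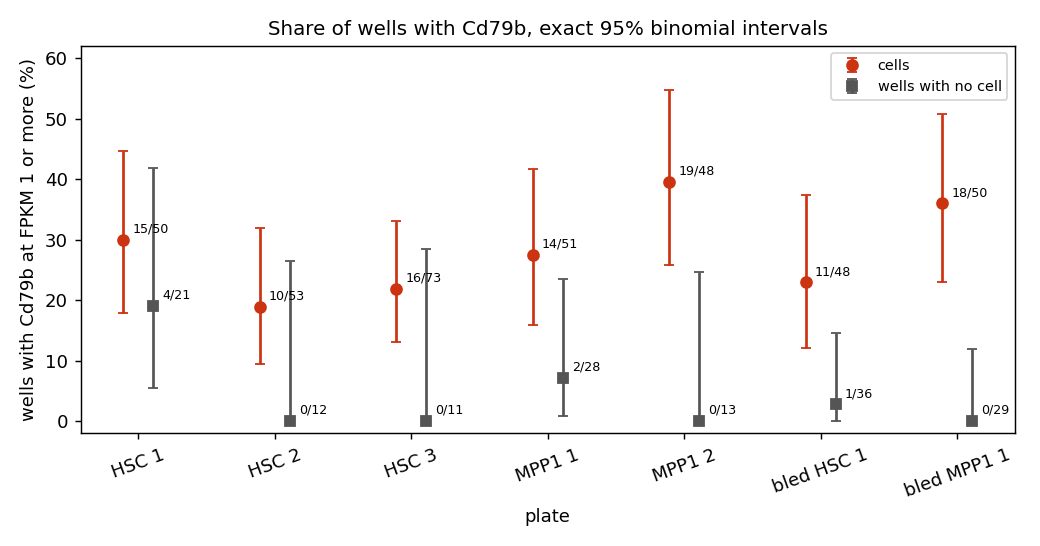
Percentage of wells with Cd79b at FPKM 1 or more on each plate, for cells (red circles) and for wells labelled with no cell (grey squares), with exact 95% binomial intervals and counts. Cells lie between 18.9% and 39.6%, and HSC plate 1 has the highest share of wells with no cell, 4 of 21.

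Where Cd79b was detected its level ran from 1.29 to 1493 FPKM, with a median of 64.3. Plate medians over such cells were 77.7, 11.4 and 10.0 FPKM for HSC, 68.7 and 43.6 for MPP1, 150 for bled HSC and 180 for bled MPP1. Between 3 and 11 cells per plate exceeded 100 FPKM, and the top cell gave between 15.1% and 58.3% of the summed level of its plate. The median number of genes in cells with Cd79b was below that of the other cells on HSC plate 1 (2147 and 2193), HSC plate 2 (2393.5 and 2684) and MPP1 plate 1 (2531.5 and 2555). It was above it on HSC plate 3 (2024 and 1907), MPP1 plate 2 (2981 and 2340), bled HSC (2511 and 2399) and bled MPP1 (3316 and 2901.5).

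Wells labelled with no cell were set beside the cells. Cd79b reached FPKM 1 in 7 of 150 such wells, or 4.67% (interval 1.90 to 9.38): 4 of 21 on HSC plate 1, 2 of 28 on MPP1 plate 1 and 1 of 36 on the bled HSC plate, where it stood at 923 FPKM. The other 4 plates had none in 11 to 29 wells each, which allows a share of up to 10.3% in the largest of them. The pooled share lay below the share of cells on every plate. Within plates, the intervals of cells and of wells with no cell overlapped on all 3 HSC plates, on MPP1 plate 1 and on the bled HSC plate, most on HSC plate 1 (17.9 to 44.6 against 5.45 to 41.9). They were separate on MPP1 plate 2 (25.8 to 54.7 against 0 to 24.7) and on the bled MPP1 plate (22.9 to 50.8 against 0 to 11.9). The wells with Cd79b but no labelled cell had from 400 to 1182 genes at FPKM 1. On HSC plate 1, those with 1182 and 1129 genes passed the limit of 1000 genes set for cells. Such wells are thus no clean background, and whether they held a cell or its RNA was not tested. Their part in the share of cells was not tested either.

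**Figure D5:**
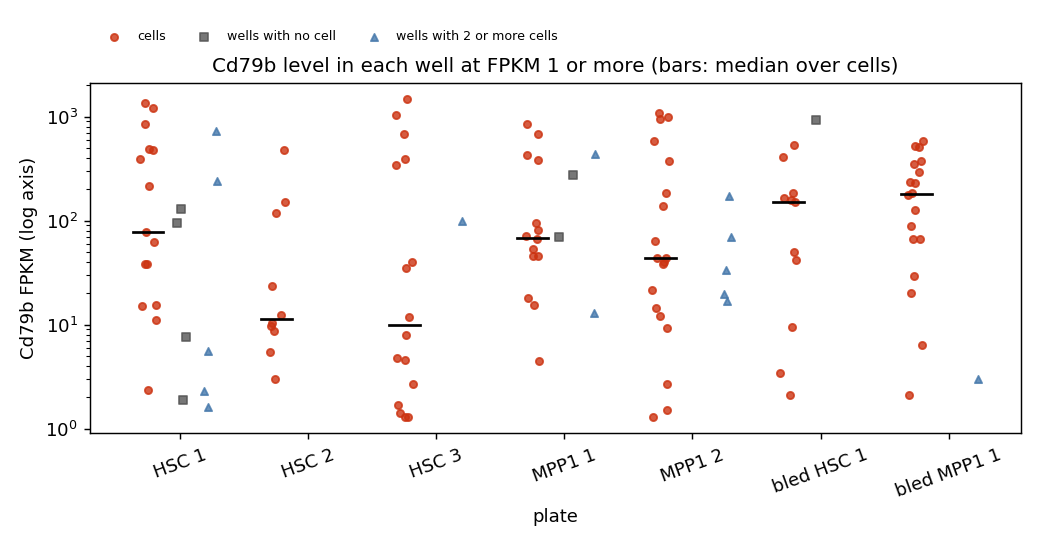
FPKM of Cd79b (log axis) in each well at FPKM 1 or more, by plate, for cells (red, median as a black bar), wells with no cell (grey) and wells with 2 or more cells (blue). Cells span from 1.29 to 1493 FPKM, and wells with no cell reach 923.

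The partner chain Cd79a was seen in 2 of 373 cells (0.536%, interval 0.0650 to 1.92), at 5.45 FPKM on HSC plate 2 and 3.75 on MPP1 plate 2. Neither cell had Cd79b. Vpreb1 was also seen in 2 cells, with 2.67 FPKM (HSC plate 2) and 5.97 (HSC plate 3), and in 1 of 150 wells with no cell, at 3.68. Its share of cells was thus not above that of wells with no cell, where the well with Vpreb1 had 1415 genes at FPKM 1. Ebf1, Pax5, Rag1, Rag2, Dntt, Igll1 and Ly6d reached FPKM 1 in 0 of 373 cells, which allows a share of up to 0.804% each. No cell had 2 members: 107 had 1 and 266 had none. Cd79a and Vpreb1 were in 2 cells each and Cd79b in 27.6% of cells, so nothing is read from this lack of overlap. Of 20 further B lineage genes with a row Ms4a1 and Cd22 were among those in no cell, whereas Cd24a was in 78.3%, Btk in 29.0% and Cd37 in 26.3%. Flt3 was seen in 8.58% and Il7r in 0.268% of cells.

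The single-cell and bulk libraries placed Cd79b differently. The plate means over all cells were 105, 15.6 and 55.5 FPKM for HSC and 55.5 and 95.5 for MPP1, whereas the bulk libraries had 0.21 and 0.14. The libraries were made by different protocols, and the tables were normalized separately, so the population, the protocol and the table cannot be told apart.

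Whether the members differed between MPP1 and HSC was tested with limma over plates 1 and 2 of each, on log2(mean FPKM over cells + 1). HSC plate 3 was left out of the main test. With it added, the Cd79b log2 difference was 0.67. Cd79b alone of the 10 members had a mean of at least FPKM 1 and entered the test. Its mean was 60.2 ± 63.1 FPKM for HSC (SD, n = 2 plates) against 75.5 ± 28.2 for MPP1 (SD, n = 2 plates), and the plates of both groups overlapped. The log2 difference was 0.82 (SE 0.73) with a limma adjusted p = 0.860, against a background of 0.0102% of 9833 genes called. It turned to -0.52 without HSC plate 2. The share of cells was 24.4% ± 7.87 in HSC and 33.5% ± 8.58 in MPP1, also overlapping. Of the further lists, 6 B lineage genes, 21 lymphoid priming genes and 10 end joining genes were tested, and none passed.

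Bleeding was compared with the normal state over 6 plates with the cell type as a covariate. Cd79b averaged 35.6 FPKM in bled HSC and 77.7 in bled MPP1, both within the range of the normal plates of their cell type. The log2 difference was -0.05 (SE 0.61) with a limma adjusted p = 0.995. In this comparison 0% of 10017 genes were called (586 had an unadjusted p under 0.05), so a gene not called is not shown to be unchanged. With 1 plate per bled group, bleeding, plate and table cannot be told apart. Among the lists, 6 B lineage, 23 lymphoid priming and 10 end joining genes were tested, and none passed.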

How the data were processed

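RNA was sequenced from single cells (Smart-seq) and from bulk populations of 1000 cells, per the labels' protocols. The authors deposited FPKM values, 1 per gene and library. The submitters' processing notes name TopHat 1.3.3, Cufflinks 1.2.1 and build mm9, and Bowtie2 2.2.1 as well for HSC plate 3. FPKM is relative to the total of its own library. Low values did not fall on steps that give whole reads (3.21% to 35.6% of low genes shared the commonest ratio, within 1%), so depth is unknown and no count test was run.

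Columns were matched to samples by their names. Those of HSC plate 1 match a first run and a repeat run of the same wells, so either could be held, and 96 repeat-run samples were not analysed as such. The replicate was the plate, and nothing says that plates came from separate mice, so p-values measure only the spread between plates. Wells with 1 cell and at least 1000 genes at FPKM 1 entered. Genes averaging FPKM 1 or more across plates were tested with limma 3.58.1 (R 4.3.3, intensity trend, two-sided, Benjamini-Hochberg over all genes tested, threshold 0.05) on log2(mean FPKM + 1), a scale that understates changes of low genes. The limma step was also run on simulated data with a capped spread between plates. The outcome is not given here, and nothing about Cd79b is read from it. Tables were read with pandas 2.3.3, exact binomial (Clopper-Pearson) intervals came from scipy 1.17.1, and a count of 0 was given the limit of 3 counts. Such intervals and limits cover counting error only.

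Bulk populations have no replicates and no test. Differences of log2(FPKM + 1) of at least 2 were counted beside the same count over all genes. Motifs were searched in RefSeq windows on GRCm38.p6, a build other than that of the files. The text names all members, the 10 genes most like their mean profile, the 2 most like each member, and up to 4 genes per list with the highest CLP level. Other list genes were named after their values were seen, and 3 genes that the rule or lists name are not reported here. The members, lists and tests were chosen with earlier results of these data known. Alternatives were the pseudocount, filters, scaling, cell limits, each plate left out, HSC plate 3 added and a plate-number block.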

Additional observations from a re-analysis of the deposited data

Results flagged for a closer look

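Wells outside the 1-cell wells also held members. Cd79b reached FPKM 1 in 4.67% of the 150 wells labelled with no cell, above the 2% that a count of 0 would allow. Among 62 wells labelled with 2 or more cells, Cd79b reached FPKM 1 in 14, or 22.6% (interval 12.9 to 35.0). This share was above that of the wells with no cell but not above the 27.6% (23.1 to 32.5) of the 1-cell wells used. Rag2 was found in 1 of these 62 wells (1.61%), a well of HSC plate 1 labelled with 3 cells, at 36.9 FPKM, although it was in no 1-cell well used and no well without a cell. Vpreb1 was likewise in 1 of 62 (1.61%), a 2-cell well of HSC plate 1 at 20.1 FPKM, against 1 of 150 wells with no cell. The causes were not tested.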

How the results depend on the processing

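The Cd79b difference between MPP1 and HSC kept its direction and stayed short of the threshold under every alternative run except without HSC plate 2, where it turned to -0.52. With each plate left out it ran from -0.52 to 2.15. The number of genes called over all genes went from 1 to 0 without the low-value filter and with each plate left out (0 to 0), to 38 with the mean of log2 values and to 6 with cells scaled to equal totals. With plate number as a replicate block it was 58, and Cd79b had an adjusted p of 0.777 in limma. Whether plates of equal number belong together is not known. The deviations of plate 1 in HSC and MPP1 correlated at 0.042 over 9833 genes, and 1 such value cannot decide it. For bled against normal the Cd79b value turned to 0.17 with the mean of log2 values, to 0.59 with at least 2000 genes per cell and to 0.0915 in MPP1 alone, and ran from -0.60 to 0.54 with each plate left out, where it was positive without HSC plate 1 (0.54), without MPP1 plate 2 (0.0933) and without the bled HSC plate (0.0915). Genes called were 6 with the mean of log2 values and 1 with scaled cells, and 0 to 1 with each plate left out. No paired analysis was possible for it because each bled group has 1 plate.

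The share of cells with Cd79b on HSC plate 3 went to 12.3% at FPKM 5. In bulk, the count of members higher in MPP4 than HSC went from 1 to 4 (pseudocount 0.1), 2 (equal totals) and 3 (log2 difference of at least 1, added after seeing the data). Members lower in CLP than MPP4 went from 1 to 0 with either scaling. Members higher in CLP Sca1 high than MPP4, and than CLP, went from 1 to 2 under all 4 alternatives. Members lower in CLP Sca1 high than MPP4 went from 0 to 1 with the pseudocount of 0.1 and the smaller difference. The share of all genes under these bulk alternatives is not given, so nothing about the members is read from these counts. Of the 10 genes most like the members, 1 stayed by Spearman correlation and 0 without the CLP gates. The causes were not tested.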
